A study of Mus musculus with 43 samples.

Results

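The genes described here encode the matrix metalloproteinases (MMP), the ADAMTS proteases and their tissue inhibitors (TIMP). They were chosen by name: every protein-coding gene of the count table whose symbol is Mmp, Timp or Adamts followed by a digit. This gave 46 of 56748 genes, of which 23 were MMP, 19 were ADAMTS and 4 were TIMP genes. After a filter on low counts 40 were tested, 17 MMP, 19 ADAMTS and all 4 TIMP genes. The 6 others had at most 106 counts in any library (Mmp16), and Mmp24, Mmp21, Mmp20 and Mmp1b had at most 18, 9, 4 and 2. Mmp1a had 0 counts in the 43 libraries, which allows a level of up to 0.0917 CPM in the smallest library (3 counts, counting error only).

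MMPs are zinc-dependent proteases that cut collagens, elastin, basement membrane and cell surface proteins, and most are secreted as inactive precursors. ADAMTS proteases carry thrombospondin repeats, and their members process procollagens or cut proteoglycans such as versican. TIMPs bind the active site of these enzymes and block it. In fat that expands on a rich diet, such enzymes are known from adipocyte precursors, fibroblasts, vessel cells and macrophages, where they reshape the matrix around growing adipocytes.

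RNA of the epididymal fat pad (white adipose tissue) of male mice was sequenced, and the study compared diets and doses of SZ-A, the alkaloids of Ramulus Mori (Sangzhi), a mulberry twig drug. The SD group (7 libraries) had a standard diet with 10% fat. The HFD group (10 libraries) had a diet with 60% fat, and 9, 8 and 9 further libraries came from mice on that diet given SZ-A at 200, 400 and 600 mg/kg/day, named SZ-A 200, SZ-A 400 and SZ-A 600. The labels give no strain, age or treatment time. They describe replicate biosamples and name no animals, so the p-values cover only the spread among these samples, which may be technical. Total counts were 32716294 to 44259619 per library. Levels are CPM, counts scaled to a common library size with TMM factors, a mean is followed by its standard deviation, and a gene was called higher or lower at an edgeR quasi-likelihood adjusted p under 0.05 over all 20218 tested genes. In whole tissue, fewer cells of a type and less RNA per cell cannot be told apart.

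Some libraries stood apart. SD library 4, SZ-A 400 libraries 3 and 6 and SZ-A 600 library 6 held RNA of other tissue, with over 100 genes at more than 20 times their median level. The small noncoding RNA genes took a share of counts that divided the libraries into set 1 (22 libraries, with 2 of SD and 5 of each other group) and set 2 (21 libraries, with 5, 5, 4, 3 and 4), a split that the labels do not mention. HFD libraries 8 and 10 lay within the SD range for macrophage markers, whose summed level was 948 and 992 CPM there against a median of 6852 CPM over HFD. Results of the genes described here that rest on these libraries are given with and without them.

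A row of 10 MMP genes lies on chromosome 9, from 7272514 to 7699586 in the coordinates of the count table, and it holds Mmp13, Mmp12, Mmp1b, Mmp3, Mmp1a, Mmp10, Mmp8, Mmp27, Mmp20 and Mmp7 within 427.1 kb. These coordinates are printed as the table gives them: the submitters' processing notes name mm10, but 2.79% of 52034 genes shared a start or end with a GRCm38 annotation on the same chromosome. RefSeq promoter windows (GRCm38.p6, 250 bases before to 50 after the start) were found for 32 of the 46 genes. The letters TGANTCA, the AP-1 element known from stromelysin and collagenase promoters, were searched on both strands, which read alike because the motif is a palindrome. They were in a window of 8 of the 32 genes (25%) and of 8.97% of 27025 genes with a window. Those 8 genes were Mmp13, Mmp12, Mmp1b, Mmp3, Mmp1a, Mmp10, Mmp20 and Mmp7, all of that row. Mmp12 and Mmp7 have 2 windows each, of which 1 held the element. The 5 of the 8 genes that could be tested are shown, 61 bases each, since the largest rise with diet, that of Mmp12, was among them, with the element in capitals.
Mmp12, chr9:7347303-7347363, + strand, element at -44 from the start site: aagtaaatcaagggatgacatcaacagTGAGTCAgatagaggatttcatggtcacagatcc
Mmp3, chr9:7445749-7445809, + strand, element at -46: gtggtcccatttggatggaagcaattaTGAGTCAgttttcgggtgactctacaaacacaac
Mmp13, chr9:7272452-7272512, + strand, element at -35: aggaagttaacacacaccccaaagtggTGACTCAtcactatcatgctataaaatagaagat
Mmp10, chr9:7502252-7502312, + strand, element at -63: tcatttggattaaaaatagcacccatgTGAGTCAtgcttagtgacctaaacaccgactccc
Mmp7, chr9:7692000-7692060, + strand, element at -63: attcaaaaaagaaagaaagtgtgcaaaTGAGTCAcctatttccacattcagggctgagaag
Among genes with a window, the element was present in 3 of 9 that were higher on HFD (Mmp12, Mmp3 and Mmp13), in 2 of 18 other tested ones (Mmp10 and Mmp7) and in 3 of 5 untested ones. A match describes letters only. On the diet Mmp12, Mmp3, Mmp13 and Mmp27 of the row were higher and Mmp7 was lower. The call of Mmp7 was lost in edgeR without SD library 4, which held other tissue RNA (adjusted p = 0.0649). Mmp10 and Mmp8 did not pass the test, which does not show that they had not changed, and 3 were not tested.

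HFD was compared with SD to find the genes that differ with the diet alone. Of the 40 tested genes 13 were higher on HFD (18.4% of all tested genes) and 5 were lower (13.3% of all tested genes), while 22 did not pass the test. The rise was found in 8 of 17 MMP genes (Mmp12, Mmp3, Mmp19, Mmp13, Mmp27, Mmp2, Mmp14 and Mmp23), in 3 of 19 ADAMTS genes (Adamts2, Adamts15 and Adamts7) and in Timp1 and Timp2. Mmp7, Adamts20, Adamts1, Adamts4 and Timp3 were lower. Without the libraries holding other tissue RNA the counts were 15 and 3 (20.7% and 15.5% of all genes in that fit). They were 14 and 6 without HFD library 8 (19.4% and 17.9%) and 13 and 7 without HFD library 10 (19.8% and 15.3%). The lower count was also 3 without SD library 4, 6 or 7 or HFD library 1, 2, 3, 4 or 5, where 10.1% to 12.2% of all genes were lower. The median log2 fold change was 0.35 over the 40 genes, 0.82 over the MMP genes, -0.09 over the ADAMTS genes and -0.05 over all tested genes. The 22 genes that were not called ranged from -1.24 (Adamts8) to 1.88 (Mmp10). With upper-quartile factors in place of TMM the median of all tested genes was -0.17, and 45.8% of all called genes were higher, against 58.1% with TMM.

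**Figure D1:**
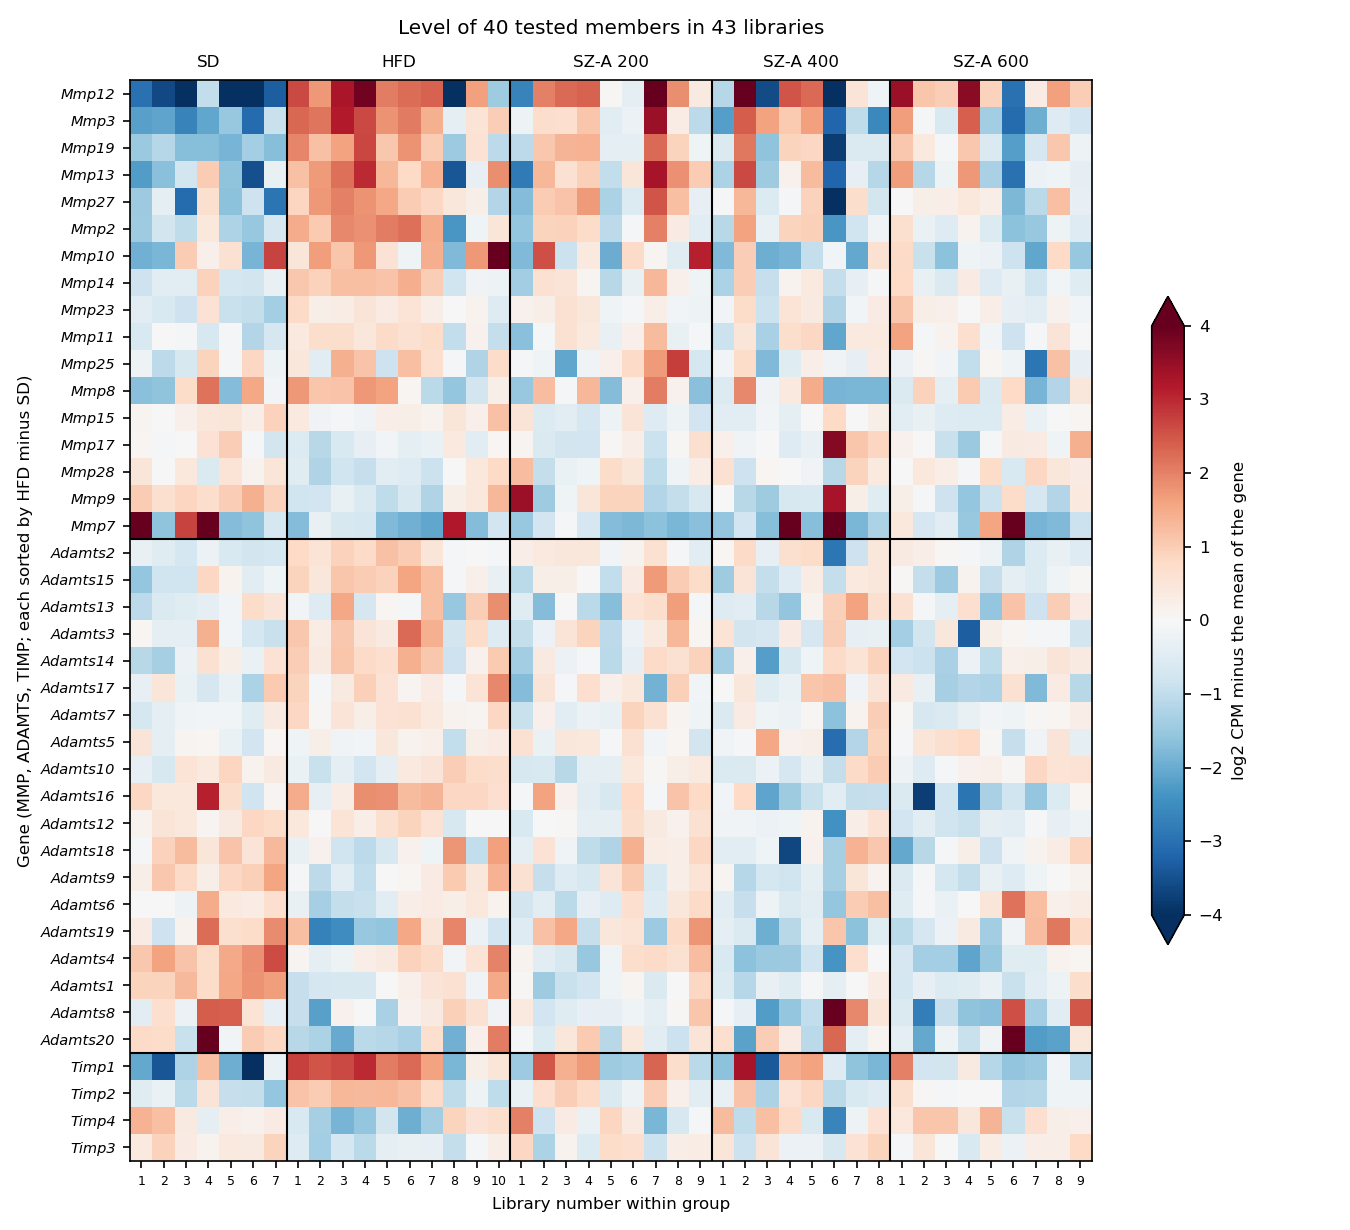
Heat map of the 40 tested genes (rows, MMP then ADAMTS then TIMP, each sorted by the fitted HFD minus SD difference) in 43 libraries (columns by group and library number); colour is log2 CPM minus the mean of the gene, clipped at 4 either way. Most HFD columns are red for Mmp12, Mmp3, Mmp19, Mmp2, Timp1 and Timp2, and HFD library 8 is blue for most of these. Dark cells mark Mmp7 and Adamts20 in SD library 4 and SZ-A 600 library 6. Mmp7 is also high in SD library 1 and SZ-A 400 libraries 4 and 6.

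Mmp12 encodes macrophage elastase, which cuts elastin. It had 0.566, 21.1 and 129 CPM in the lowest, median and highest SD library and 9.45, 1141 and 3736 CPM in those of HFD. Of the 10 HFD libraries 8 lay above the highest SD library, which was SD library 4, while HFD libraries 8 and 10 lay inside the SD range. The means were 30.7 ± 45.3 and 1314 ± 1103 CPM (log2 fold change 5.42 with SE 1.25, adjusted p = 0.00137). Without the 4 libraries holding other tissue RNA the fold change was 6.51 (adjusted p = 1.28e-04). Mmp12 overlaps Mmp1b on the opposite strand by 1261 bases, and Mmp1b had at most 2 counts in a library.

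Mmp3, stromelysin 1, cuts proteoglycans and fibronectin and activates other MMPs. It had 0.459, 0.960 and 2.30 CPM over SD and 3.24, 16.9 and 39.2 CPM over HFD as lowest, median and highest. Every HFD library lay above every SD library, which 1.59% of all tested genes showed (log2 fold change 3.95 with SE 0.83, adjusted p = 6.33e-04). Mmp10, stromelysin 2, had a median of 0.197 CPM on SD and 0.457 CPM on HFD and did not pass the test (log2 fold change 1.88 with SE 1.09, adjusted p = 0.183).

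The collagenases cut the triple helix of fibrillar collagen. Mmp13, collagenase 3, had 0.0574, 0.373 and 2.57 CPM over SD and 0.0606, 3.30 and 10.3 CPM over HFD. The groups overlapped, with HFD library 8 at 0.0606 CPM near the lowest SD library (log2 fold change 2.31 with SE 0.83, adjusted p = 0.0306). The call was lost when SD library 1, 2, 3, 5 or 6 or HFD library 4 was left out, with adjusted p up to 0.0642. Mmp8, the neutrophil collagenase, had 0.223 ± 0.286 CPM on SD and 0.262 ± 0.210 CPM on HFD and did not pass (adjusted p = 0.877). Neutrophil markers were sparse, with summed levels of 6.54 to 65.7 CPM over SD and 8.62 to 33.9 CPM over HFD, and 4 of the 10 markers were at 0 in some HFD library.

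The gelatinases cut denatured collagen and basement membrane. Mmp2, gelatinase A, had 19.4, 27.3 and 73.5 CPM over SD and 10.9, 154 and 256 CPM over HFD. Of the HFD libraries 8 lay above all SD libraries and 1, HFD library 8, below all of them (log2 fold change 2.13 with SE 0.51, adjusted p = 0.00196). Mmp9, gelatinase B, had 8.00, 9.76 and 13.7 CPM over SD and 2.21, 3.32 and 12.8 CPM over HFD. In 9 of 10 HFD libraries it was below the lowest SD library, but the fit over groups did not call it (log2 fold change -1.08 with SE 0.59, adjusted p = 0.151).

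Mmp14, MT1-MMP, sits in the cell membrane and activates the Mmp2 precursor. It had 57.2, 74.2 and 194 CPM over SD and 59.0, 207 and 278 CPM over HFD (log2 fold change 1.07 with SE 0.35, adjusted p = 0.0177). The ranges overlapped, with SD library 4, which held other tissue RNA, the highest of SD and HFD library 8 the lowest of HFD, and without the 4 such libraries the fold change was 1.39 (adjusted p = 0.00217). Mmp23, a membrane-bound member with a toxin-like domain, rose less, from 14.6 ± 7.61 to 25.7 ± 5.82 CPM (log2 fold change 0.82 with SE 0.24, adjusted p = 0.00881), and its groups overlapped between 14.8 and 31.1 CPM.

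Mmp19, a secreted MMP that cuts basement membrane proteins, had 18.2, 20.3 and 30.0 CPM over SD and 24.4, 144 and 425 CPM over HFD. The SD libraries kept within a narrow band, and 9 of 10 HFD libraries lay above it, HFD library 8 being the exception (log2 fold change 2.90 with SE 0.60, adjusted p = 5.16e-04). Mmp19 overlaps Tmem198b, with a mean of 10.2 CPM, on the opposite strand by 789 bases. Mmp27 was scarce, with 0.0492, 0.248 and 1.25 CPM over SD and 0.314, 1.52 and 3.27 CPM over HFD (log2 fold change 2.15 with SE 0.66, adjusted p = 0.0128). Mmp11, stromelysin 3, lay above the highest SD library in 8 of 10 HFD libraries and did not pass the test (log2 fold change 0.78 with SE 0.35, adjusted p = 0.0859).

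Among the ADAMTS genes, Adamts2, which removes the N-propeptide of procollagen, had 92.0, 101 and 128 CPM over SD and 144, 239 and 345 CPM over HFD. Every HFD library, library 8 included, lay above every SD library (log2 fold change 1.15 with SE 0.28, adjusted p = 0.00229). Adamts15, which cuts versican, and Adamts7, which cuts cartilage oligomeric matrix protein, rose from 22.3 ± 12.4 to 45.5 ± 17.8 CPM (log2 fold change 1.03 with SE 0.35, adjusted p = 0.0220) and from 8.16 ± 2.05 to 12.8 ± 2.59 CPM (log2 fold change 0.65 with SE 0.23, adjusted p = 0.0319). In both genes the groups overlapped. Without HFD library 6 the call of Adamts15 was lost at adjusted p = 0.0503, and that of Adamts7 without SD library 1, 4 or 6 or HFD library 1 or 6, with adjusted p up to 0.0604. Adamts7 overlaps Tbc1d2b on the opposite strand by 6045 bases, and whether the counting used strand is not given in the sources used here.

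Adamts1 and Adamts4, proteoglycan-cutting enzymes, fell with the diet. Adamts1 had 152, 226 and 322 CPM over SD and 48.2, 88.4 and 262 CPM over HFD. In 9 of 10 HFD libraries it was below the lowest SD library (log2 fold change -1.14 with SE 0.28, adjusted p = 0.00233). Adamts4 had 17.9, 31.1 and 65.9 CPM over SD and 8.25, 13.4 and 43.3 CPM over HFD, with overlap (log2 fold change -1.01 with SE 0.38, adjusted p = 0.0365). Its call was lost without SD library 6 or 7 or without any 1 of HFD libraries 1 to 5, with adjusted p up to 0.135.

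Of the 4 inhibitors Timp1 and Timp2 rose and Timp3 fell. Timp1, the inducible member, had 0.201, 1.09 and 10.0 CPM over SD and 1.18, 19.7 and 34.6 CPM over HFD. The groups overlapped, and SD library 4 held the highest SD level and HFD library 8 the lowest HFD level (log2 fold change 2.80 with SE 0.87, adjusted p = 0.0127). Timp2, which also takes part in Mmp2 activation at the cell surface, had 186, 286 and 768 CPM over SD and 267, 1152 and 1364 CPM over HFD (log2 fold change 1.34 with SE 0.37, adjusted p = 0.00569). Its highest SD level was again in SD library 4, and HFD libraries 8, 9 and 10 lay within the SD range.

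Timp3, the inhibitor that binds to the matrix and also blocks ADAMTS enzymes, had 244, 291 and 426 CPM over SD and 87.3, 163 and 268 CPM over HFD. It was below the lowest SD library in 9 of 10 HFD libraries (log2 fold change -0.98 with SE 0.26, adjusted p = 0.00385). Timp4, known to be abundant in fat and heart, had 171, 278 and 584 CPM over SD and 57.6, 111 and 416 CPM over HFD and did not pass the test (log2 fold change -0.93 with SE 0.46, adjusted p = 0.115). Without HFD library 8 its adjusted p was 0.0438. Of 17 alternative analyses 6 called Timp4, and its log2 fold changes over them ran from -2.50 to -2.69e-04. In set 1 the SD libraries had 511 and 584 CPM and the HFD libraries 61.5 to 144 CPM. In set 2 these were 171 to 285 and 57.6 to 416 CPM, with HFD libraries 8, 9 and 10 at 334 to 416 CPM and HFD libraries 6 and 7 at 57.6 and 84.3 CPM. The diet difference in set 2 minus that in set 1 was 2.45 in edgeR (unadjusted p = 0.00669, adjusted p = 0.544). Timp1, Timp3 and Timp4 each lie within a synapsin gene, Syn1, Syn3 and Syn2, on the opposite strand, with mean levels of 3.16, 1.19 and 11.1 CPM for the host genes.

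**Figure D2:**
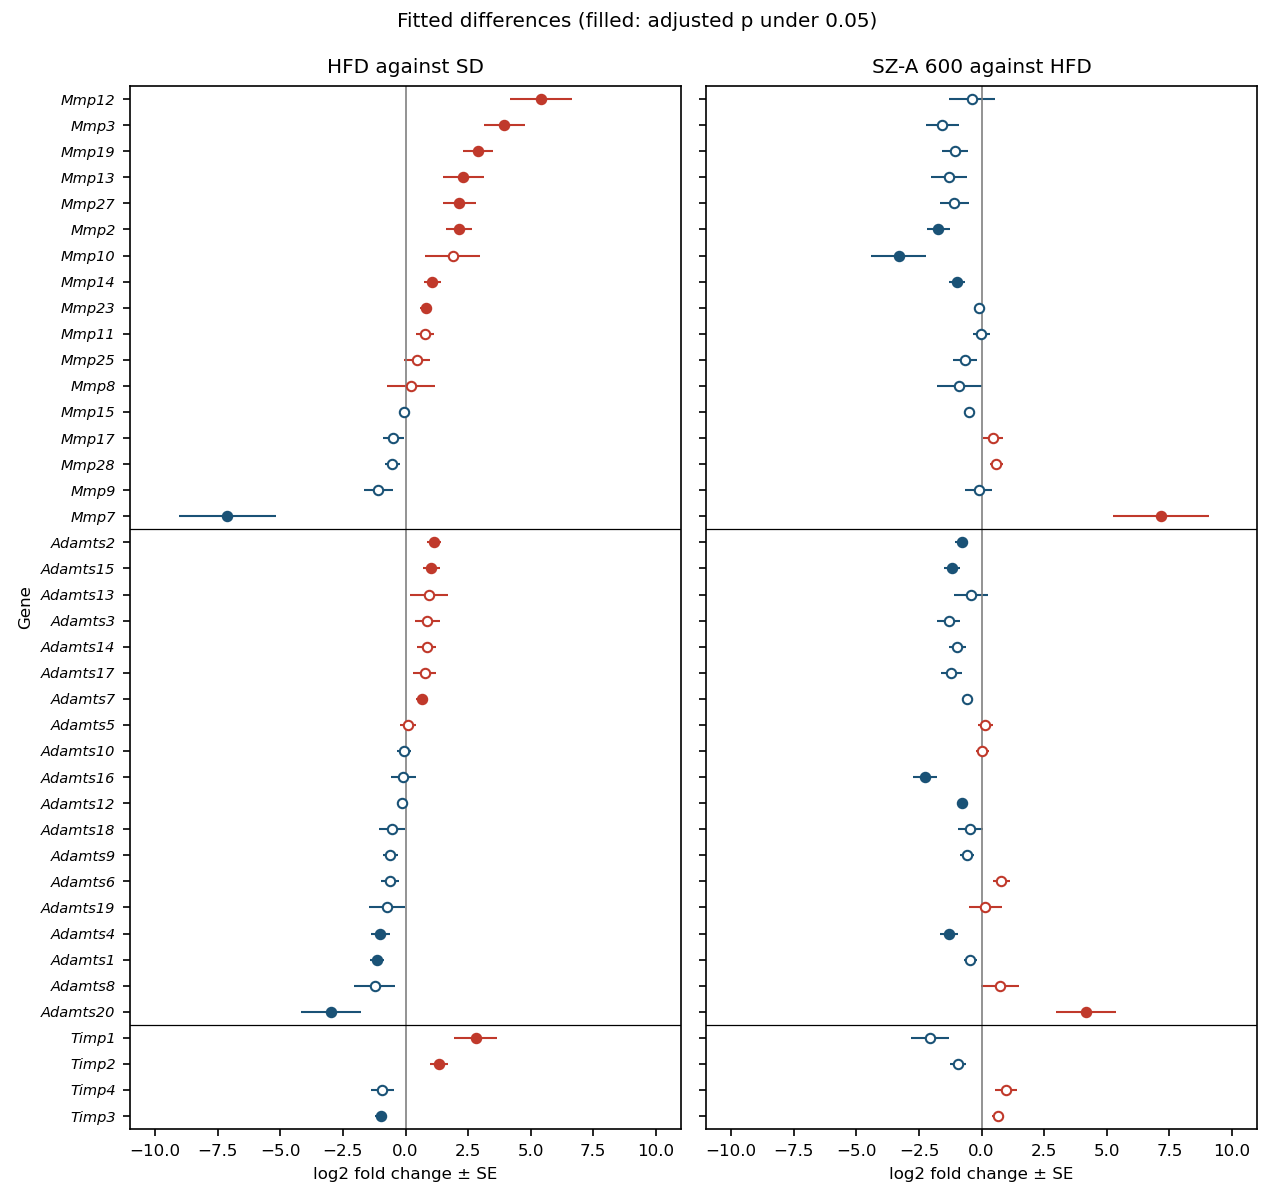
Fitted log2 fold changes of the 40 tested genes for HFD against SD (left) and SZ-A 600 against HFD (right), with bars of 1 standard error; filled points have an adjusted p under 0.05. On the left the filled points to the right run from Mmp12 (5.42) to Adamts7 (0.65), and on the right 8 filled points lie left of 0 and those of Mmp7 and Adamts20 lie right of it.

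Markers of cell types differed in how they changed on HFD, where 18.4% of all tested genes were higher and 13.3% lower. Of 10 macrophage markers 9 rose on HFD, with a median log2 fold change of 3.14, and their summed level was 466 to 1128 CPM over SD and 948 to 10799.8 CPM over HFD. Of 10 fibroblast and preadipocyte markers 6 rose and 0 fell, with sums of 1317 to 5100 CPM over SD and 1692 to 9079 CPM over HFD. None of these markers was at 0 in any library. Of 10 adipocyte markers 1 rose and 1 fell. Of 6 endothelial markers 0 rose and 2 fell, Kdr (log2 fold change -1.25, adjusted p = 0.00248) and Flt1 (adjusted p = 0.0111), with sums of 766 to 2143 CPM over SD and 678 to 1764 CPM over HFD. The part of these cells in the result was not tested. HFD library 8, with the lowest macrophage sum of its group, was the lowest HFD library for 8 of the 13 risen genes and at or below the highest SD level for 11 of them. The share of all risen genes that did so is not given here, so these counts only describe the 13 genes.

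With all libraries, the direction within the library sets was the same for the 13 risen genes, and the size was larger in set 1. Mmp12 differed by 6.11 in set 1 (adjusted p = 0.0171) and by 4.38 in set 2 (adjusted p = 0.120). For Timp1 the values were 5.23 (adjusted p = 0.0205) and 1.46 (adjusted p = 0.335), and for Mmp2 2.67 (adjusted p = 0.00945) and 1.59 (adjusted p = 0.176). Timp3 differed by -1.51 (adjusted p = 0.0117) and -0.67 (adjusted p = 0.225). SD library 4, which held other tissue RNA, is in set 2. So are HFD libraries 8, 9 and 10. Their mean log2 CPM of the 10 macrophage markers was 5.75, 7.59 and 6.24, against 8.59 to 9.47 in the other HFD libraries. The part of these libraries in the smaller differences of set 2 was not tested. Without the libraries holding other tissue RNA, the difference in set 2 minus that in set 1 was 0.24 for Mmp12 and 0.14 for Mmp23. It was -0.04 for Mmp27 and also below 0 for the other risen genes. Set 2 alone called 0 of 41 genes tested there higher and 0 lower in edgeR, where 5 and 3 had an unadjusted p under 0.05 and 0.925% and 0.669% of all genes were called, and 5 higher once the libraries holding other tissue RNA were out (6.10% of all genes). Tested directly, the diet difference did not differ between sets for any of the 40 genes at an adjusted p under 0.05 in edgeR, while 4 had an unadjusted p below 0.05.

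The comparisons with HFD asked what SZ-A changed on the diet. With SZ-A 200, edgeR called 0 of the 40 genes higher and 0 lower, beside 0.00989% and 0% of all tested genes. The smallest adjusted p was 0.562 (Mmp15 and Timp3), and 4 of the 40 (Mmp14, Mmp15, Mmp9 and Timp3) had an unadjusted p under 0.05. The DESeq2 Wald test called 0 as well, beside 0.0709% of all its genes higher and 0.0967% lower. With quality weights limma voom called 0 higher (1.53% of all genes) and 4 lower (0.861%). With SZ-A 400, Mmp17 was higher (2.46% of all tested genes) and Adamts16 was lower (0.406%). With SZ-A 600, 8 genes were lower (6.47% of all tested genes) and 2 higher (5.12%), and 29 of the 40 fitted changes were below 0, with a median of -0.58 against 0.06 over all tested genes. Over the doses, as a linear change per 200 mg/kg/day, 10 genes fell (7.86% of all tested genes) and 2 rose (6.82%). Without the libraries holding other tissue RNA 11 were lower and 0 higher with SZ-A 600 (7.49% and 3.86% of all genes in that fit), and 11 fell and 0 rose over the doses (7.00% and 3.55%). With SZ-A 600, 13 were lower and 3 higher without HFD library 8 (9.92% and 9.72% of all genes), and 9 lower and 4 higher without HFD library 10 (8.13% and 6.24%). Without HFD library 3 or 4 or SZ-A 600 library 5, 7 or 9, 5 were lower, beside 3.66% to 5.11% of all genes. These comparisons share the HFD libraries with each other and with the diet comparison.

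Higher on HFD than on SD and lower with SZ-A 600 than on HFD were 4 genes: Mmp2, Mmp14, Adamts2 and Adamts15. The HFD libraries enter both comparisons. The share of all tested genes called in both is not given here, so the count only describes these genes. Mmp2 had 17.5, 38.8 and 85.9 CPM with SZ-A 600 as lowest, median and highest (log2 fold change -1.73 with SE 0.46, adjusted p = 0.0158). Its means were 81.0 ± 61.7, 67.8 ± 53.6 and 43.7 ± 20.8 CPM at the 3 doses, beside 145 ± 80.8 CPM on HFD and 33.2 ± 18.8 CPM on SD. SZ-A 600 and HFD overlapped through HFD libraries 8, 9 and 10, and the change per 200 mg/kg/day was -0.55 (adjusted p = 0.0123).

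Mmp14, the activator of Mmp2, had 58.6, 83.1 and 176 CPM with SZ-A 600 (log2 fold change -0.97 with SE 0.32, adjusted p = 0.0422) and means of 116 ± 65.2, 96.8 ± 53.3 and 93.2 ± 37.1 CPM at the 3 doses. Its call at 600 mg/kg/day was lost, with adjusted p up to 0.0799, without any 1 of HFD libraries 1 to 7 or SZ-A 600 libraries 2, 3, 5, 6, 7 and 9. Adamts2 had 65.9, 133 and 197 CPM with SZ-A 600 (log2 fold change -0.79 with SE 0.26, adjusted p = 0.0390), and 144 CPM in the lowest HFD library. It lost the call without any 1 of HFD libraries 1 to 6 or SZ-A 600 libraries 5, 6, 7 and 9, with adjusted p up to 0.0918. Adamts15 had 9.50, 19.8 and 28.9 CPM with SZ-A 600 and 21.0 CPM in the lowest HFD library (log2 fold change -1.19 with SE 0.32, adjusted p = 0.0170), and it kept its call with each library left out, adjusted p at most 0.0380.

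Among the comparisons with SZ-A, Timp2 was called in the one over the doses, at -0.31 per 200 mg/kg/day (SE 0.11, adjusted p = 0.0448). It had 239, 524 and 839.7 CPM with SZ-A 600, and at that dose alone it did not pass (log2 fold change -0.94 with SE 0.33, adjusted p = 0.0566). The trend call was lost in 23 of 36 fits that left out 1 library, among them each of HFD libraries 1 to 7, with adjusted p up to 0.0982.

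**Figure D3:**
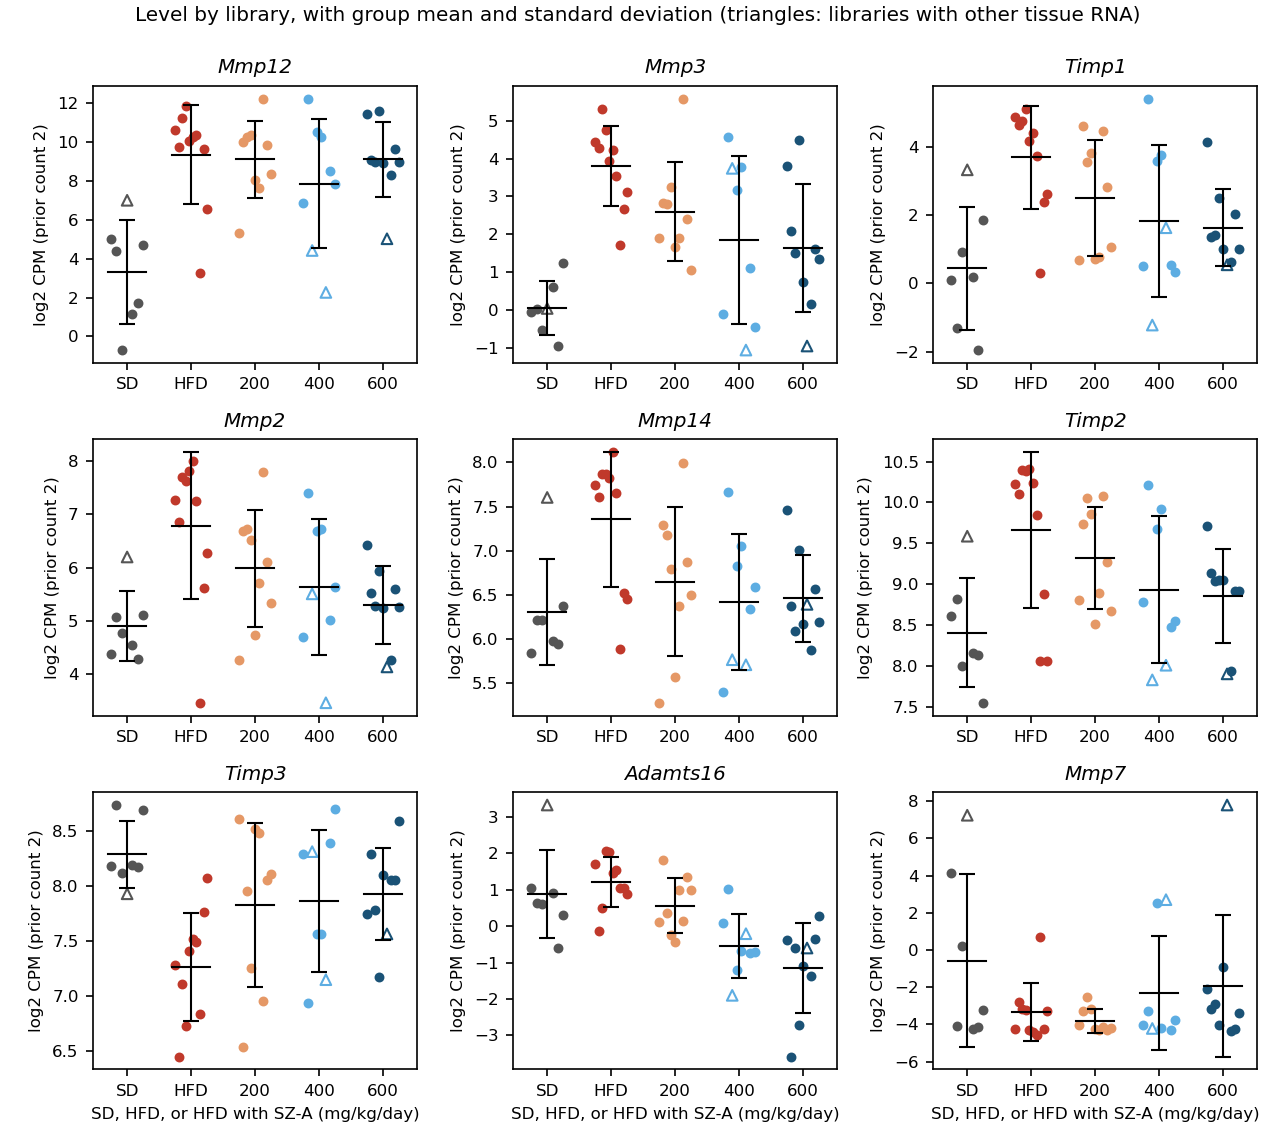
Level of 9 genes in each library, as log2 CPM with a prior count of 2, by group, with the group mean and standard deviation (black); triangles are the 4 libraries with other tissue RNA. For Mmp2, Mmp14 and Timp2 the points move down from HFD to SZ-A 600. For Mmp12 they spread from 32.7 to 3137 CPM with SZ-A 600, and for Adamts16 they fall with dose. The high points of Mmp7 are few libraries, among them SD library 1 and SZ-A 400 library 4, which are not triangles.

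Other genes fell with SZ-A that the diet comparison of all libraries did not call higher, which does not show that they had not risen. Adamts16, a member known from kidney and gonad, had 0.603, 1.48 and 10.00 CPM over SD, 0.861, 2.37 and 4.14 CPM over HFD and 0.0279, 0.598 and 1.16 CPM with SZ-A 600. With SZ-A 600 it lay below the lowest HFD library in 8 of 9 libraries (log2 fold change -2.25 with SE 0.49, adjusted p = 0.00655). The means at the 3 doses were 1.62 ± 0.918, 0.757 ± 0.545 and 0.520 ± 0.349 CPM, a change of -0.79 per step (adjusted p = 0.00312). At 400 mg/kg/day its call (log2 fold change -1.72 with SE 0.50, adjusted p = 0.0473) was lost without the libraries holding other tissue RNA, where the fold change was -1.58 (adjusted p = 0.309). That call was also lost in 13 of 18 fits that left out 1 library (HFD library 1, 3, 4, 5, 6 or 7 or SZ-A 400 library 1, 3, 4, 5, 6, 7 or 8), with adjusted p up to 0.128, and 4 of 17 alternative analyses made it. The diet comparison did not call Adamts16 (log2 fold change -0.09 with SE 0.49, adjusted p = 0.904). SD library 4 held its highest SD level, and without the libraries holding other tissue RNA the diet difference was 0.79 (adjusted p = 0.176), so its sign turned with them.

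Adamts12, which cuts cartilage oligomeric matrix protein, had 30.9, 61.3 and 89.1 CPM over HFD and 26.0, 35.1 and 45.4 CPM with SZ-A 600 (log2 fold change -0.79 with SE 0.21, adjusted p = 0.0177). The groups overlapped, and all SZ-A 600 libraries lay below the HFD median. Adamts4, already lower on HFD than on SD, had 2.44, 6.78 and 12.1 CPM with SZ-A 600 (log2 fold change -1.30 with SE 0.37, adjusted p = 0.0202), and its means went from 33.3 ± 15.9 CPM on SD through 16.5 ± 10.2 CPM on HFD to 6.69 ± 3.40 CPM. Its change over doses was -0.48 per step (adjusted p = 0.00755).

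Adamts3, another procollagen N-proteinase, was called in the comparison over the doses (-0.42 per step, SE 0.14, adjusted p = 0.0449). It had 0.303, 0.877 and 2.87 CPM over HFD and 0, 0.521 and 0.764 CPM with SZ-A 600, and the call was lost in 18 of 36 fits that left out 1 library, with adjusted p up to 0.116. On the diet Adamts3 did not pass (log2 fold change 0.87, adjusted p = 0.165), and without SD library 4 it was called higher (adjusted p = 0.0440). Mmp10 had 0, 0.457 and 7.87 CPM over HFD and 0, 0.0707 and 0.313 CPM with SZ-A 600 (log2 fold change -3.32 with SE 1.08, adjusted p = 0.0401). HFD library 10 held the highest value, and without it the adjusted p was 0.211. The call was also lost without HFD library 3 or 4 or SZ-A 600 library 2, 3, 4, 5, 6, 7 or 9.

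Mmp12, Mmp3 and Timp1, which rose on the diet, were not called with SZ-A at any dose in the edgeR fit of all libraries. Mmp12 had 40.5, 926 and 4753, 4.77, 296 and 4879.9 and 32.7, 509.9 and 3137 CPM (lowest, median and highest) with SZ-A 200, 400 and 600. Its fold change at 600 mg/kg/day was -0.37 (95% interval -2.16 to 1.41, adjusted p = 0.818), so both a fall and a rise lie inside the interval. The lowest libraries with SZ-A 400 and 600 were libraries with other tissue RNA.

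Mmp3 had 2.03, 5.26 and 47.8, 0.434, 5.50 and 23.5 and 0.472, 2.79 and 22.5 CPM with the 3 doses and differed from HFD by -1.56 at the highest (95% interval -2.88 to -0.25, adjusted p = 0.113). Without SZ-A 600 library 4 the adjusted p was 0.0338. Timp1 had 1.55, 7.06 and 24.5, 0.376, 2.23 and 42.9 and 1.41, 2.54 and 17.6 CPM, and its fitted difference at 600 mg/kg/day was -2.06 (95% interval -3.54 to -0.57, adjusted p = 0.0656). It crossed the threshold without HFD library 8 or SZ-A 600 library 1, with adjusted p down to 0.0196. For Mmp3 and Timp1 the interval lies below 0 before adjustment over all genes. With SZ-A 600 Timp1 was called lower in 7 of 17 alternative analyses, with adjusted p from 3.43e-04 (limma voom) to 0.697, and Mmp3 in 4 of 17, from 1.40e-04 (limma voom) to 0.628.

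Mmp19, Mmp13 and Mmp27 had means of 81.1 ± 48.3, 1.52 ± 1.56 and 0.842 ± 0.477 CPM with SZ-A 600, beside 169 ± 118, 3.79 ± 2.87 and 1.79 ± 0.950 CPM on HFD. Their adjusted p-values at that dose were 0.152, 0.222 and 0.208, with libraries from 14.3 to 141 CPM for Mmp19, 0.118 to 4.31 CPM for Mmp13 and 0.189 to 1.85 CPM for Mmp27. Mmp23 had 23.9 ± 8.60 CPM, a difference from HFD of -0.10 (95% interval -0.53 to 0.32). Adamts7 had 8.56 ± 1.74 CPM and missed the threshold (adjusted p = 0.0695), and Adamts1 had 75.5 ± 28.9 CPM (adjusted p = 0.250).

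Timp3 and Timp4, the inhibitors with lower means on HFD than on SD, were not called with SZ-A. Timp3 had 253 ± 109.7, 253 ± 106 and 253 ± 71.3 CPM at the 3 doses (log2 fold change 0.64 with SE 0.24, adjusted p = 0.0704 at 600 mg/kg/day). Timp4 had 287 ± 248, 279 ± 187 and 346 ± 140.3 CPM (log2 fold change 0.98 with SE 0.44, adjusted p = 0.128). In set 1 Timp4 differed between SZ-A 600 and HFD by 2.12 (adjusted p = 0.00530) and in set 2 by -0.03 (adjusted p = 0.987). Summed adipocyte markers lay at 11314 to 60626 CPM over HFD, with a median of 18604 CPM, and at 12236 to 46903 CPM with SZ-A 600, with a median of 37748 CPM, and their part in the TIMP levels was not tested.

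The 3 genes called higher with SZ-A each rested on 1 library. Mmp7, matrilysin, known from gland and duct epithelium, had 0, 0.0261 and 1.54 CPM over HFD, 221 CPM in SZ-A 600 library 6 and at most 0.469 CPM in the other SZ-A 600 libraries (log2 fold change 7.15 with SE 1.92, adjusted p = 0.0165). It had 151 CPM in SD library 4, and the median of the SD group was 0.0542 CPM (log2 fold change -7.13 with SE 1.94, adjusted p = 0.00534). Outside the 4 libraries holding other tissue RNA, Mmp7 had 17.8 CPM in SD library 1 and 5.61 CPM in SZ-A 400 library 4. In SD library 3 it had 1.11 CPM. Without SD library 4 the adjusted p of the diet difference was 0.0649, and without the 4 libraries holding other tissue RNA the gene did not pass the filter. Adamts20 followed the same libraries, with 26.8 CPM in SZ-A 600 library 6 (log2 fold change 4.17 with SE 1.19, adjusted p = 0.0220) and 7.74 CPM in SD library 4 (log2 fold change -2.98 with SE 1.18, adjusted p = 0.0494), and at most 0.889 CPM over HFD. Its diet call was lost in 12 of 17 fits that left out 1 library, with adjusted p up to 0.675. Without the 4 libraries its differences were -0.87 for SZ-A 600 (adjusted p = 0.482) and -0.71 for the diet (adjusted p = 0.485). Mmp17, MT4-MMP, had 39.3 CPM in SZ-A 400 library 6 and at most 6.56 CPM in the other 7 (log2 fold change 1.71 with SE 0.42, adjusted p = 0.0166), and without the 4 libraries its difference was 0.60 (adjusted p = 0.547). Epithelial markers summed to 308 CPM at most over SD, 489 CPM over SZ-A 600 and 22849.6 CPM over SZ-A 400, and to at most 4.48 CPM over HFD. Of 5 smooth muscle markers 3 were higher with SZ-A 400 (2.46% of all tested genes), Cnn1 (log2 fold change 6.83, adjusted p = 0.00169), Myh11 (4.34, adjusted p = 0.00215) and Des (2.73, adjusted p = 0.00358). These values include SZ-A 400 libraries 3 and 6, which held other tissue RNA, and values without them are not given here. The summed level of the 5 markers was 227 to 18147 CPM with SZ-A 400 and 221 to 727 CPM over HFD. None of the 5 was at 0 in any library, and their part in the level of Mmp17 was not tested.

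With SZ-A 600, 6.47% of all tested genes were lower. Of 10 macrophage markers 5 fell (median log2 fold change -1.38), and of 10 fibroblast and preadipocyte markers 5 fell (median -0.88). The summed macrophage level was 496 to 5442 CPM with SZ-A 600, and the summed fibroblast level 1131 to 4015 CPM. The part of these cells in the falls of Mmp2, Mmp14, Adamts2 and Adamts15 was not tested. Within set 1 SZ-A 600 differed from HFD by -1.71 for Mmp2 (adjusted p = 0.0136), -1.02 for Mmp14 (adjusted p = 0.0617), -0.71 for Adamts2 (adjusted p = 0.00705) and -1.35 for Adamts15 (adjusted p = 0.0120). Within set 2 these were -1.82, -0.88, -0.94 and -0.96, with adjusted p from 0.317 (Mmp2) to 0.412 (Mmp14), and edgeR called 0 of 41 tested genes and 0% of all genes lower, while 9 had an unadjusted p under 0.05.

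Between the 36 libraries of mice on the high-fat diet, the level of many of these genes followed the macrophage level, the mean log2 CPM of 10 markers (Adgre1, Cd68, Csf1r, Itgax, Trem2, Cd163, Mrc1, Lyz2, C1qa and C1qb), which ran from 4.27 to 9.47. Over the 40 genes Spearman's rho passed a two-sided permutation test (100000 permutations, Benjamini-Hochberg over all tested genes) with a positive sign in 17, beside 27.4% of all tested genes, and a negative sign in 10, beside 28.6%. The smallest p that these permutations can give is 1e-05. Libraries of 4 groups are pooled, and all values share library size and scaling.

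Timp2 followed the macrophage level most closely (r = 0.95 and rho = 0.96, permutation p = 1.00e-05 and 1.00e-05, adjusted 5.88e-05 and 5.73e-05), with r = 0.97 and rho = 0.95 in set 1 and r = 0.91 and rho = 0.95 in set 2. Mmp19 (r = 0.95 and rho = 0.93), Timp1 (r = 0.88 and rho = 0.90), Mmp12 (r = 0.90 and rho = 0.88), Mmp2 (r = 0.88 and rho = 0.88), Mmp27 (r = 0.85 and rho = 0.87) and Mmp14 (r = 0.84 and rho = 0.86) came next, each at the same permutation p. Without SZ-A 400 libraries 6 and 3, the 2 farthest from the median marker level, Timp2 had r = 0.96, Mmp19 0.94, Timp1 0.93, Mmp12 0.86, Mmp2 0.90, Mmp27 0.83 and Mmp14 0.84. In sets 1 and 2 these genes had rho from 0.69 (Mmp12, set 1) to 0.97 (Mmp19, set 2).

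Inhibitors and proteases with the opposite sign were fewer. Mmp17 had r = -0.67 and rho = -0.73 (permutation p = 1.00e-05 and 1.00e-05, adjusted 5.88e-05 and 5.73e-05). For Timp3 the values were r = -0.49 and rho = -0.61 (permutation p = 0.00211 and 1.00e-04, adjusted 0.00572 and 3.91e-04), and for Timp4 r = -0.39 and rho = -0.56 (permutation p = 0.0194 and 4.60e-04, adjusted 0.0381 and 0.00145). Without the 2 farthest libraries Mmp17, Timp3 and Timp4 had r = -0.62, -0.61 and -0.64. The relation of Timp3 lay in set 1 (r = -0.81 and rho = -0.88) and was near 0 in set 2 (r = 0.02 and rho = -0.07), and the difference between the sets was not tested. Adamts4, which fell with SZ-A 600, did not pass over the 36 libraries (r = 0.11 and rho = 0.06, permutation p = 0.508 and 0.732, adjusted 0.588 and 0.785), and had r = -0.14 without the 2 farthest.

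**Figure D4:**
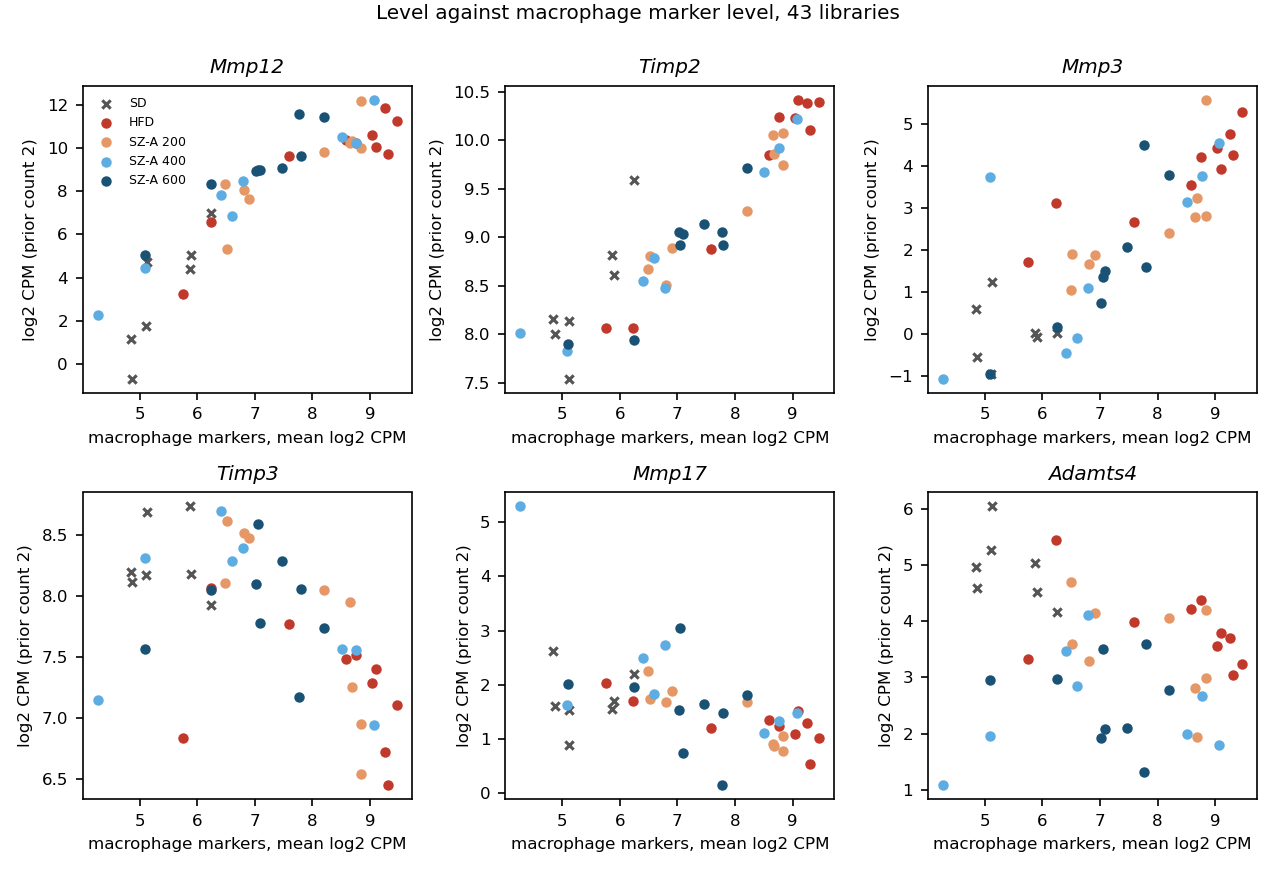
Level of 6 genes (log2 CPM, prior count 2) against the mean log2 CPM of 10 macrophage markers in each of 43 libraries; crosses are SD, which is outside the correlation, and dots are HFD and SZ-A 200, 400 and 600. Timp2, Mmp12 and Mmp3 rise along the axis, Timp3 and Mmp17 go down, and Adamts4 has rho = 0.06.

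Genes that act with or on these enzymes were read from lists written with earlier results of these data known, and the values given with them are log2 fold changes. Beside the counts of all these lists, 18.4% of all tested genes were higher and 13.3% lower on HFD. With SZ-A 600, 6.47% were lower and 5.12% higher. Some counts, such as 2 of 19 lower on HFD, lie near these shares. Of 17 genes of procollagen processing, 10 rose and 1 fell on HFD (list median 0.64) and 8 fell with SZ-A 600 (median -0.57), among them Pcolce, the enhancer of the procollagen C-proteinase (diet 1.71, adjusted p = 6.70e-04, SZ-A 600 -1.07, adjusted p = 0.0285), and the crosslinking enzyme Loxl1 (diet 1.75, adjusted p = 8.04e-04, SZ-A 600 -1.24, adjusted p = 0.0183). Of 19 matrix substrates 7 rose and 1 fell on HFD and 7 fell with SZ-A 600. Versican, Vcan, the substrate of several ADAMTS enzymes, was among both (diet 0.99, adjusted p = 0.0262, SZ-A 600 -1.72, adjusted p = 0.00325), as was fibronectin, Fn1 (diet 1.53, adjusted p = 0.00621, SZ-A 600 -1.60, adjusted p = 0.0109).

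Of 19 known inducers of MMP transcription 6 rose and 2 fell on HFD and 6 fell with SZ-A 600. Tgfb1 rose (1.75, adjusted p = 5.56e-04) and fell with SZ-A 600 (-1.02, adjusted p = 0.0356), and Fosl2, a partner in AP-1, was lower on HFD (-0.85, adjusted p = 0.00438) and lower again with SZ-A 600 (-0.75, adjusted p = 0.0219). Il1b, a known inducer of stromelysin, was lower on HFD (-2.14, adjusted p = 0.0189). The other risen inducers were Tnf (1.93, adjusted p = 0.00900), Runx1 (1.47, adjusted p = 0.00442), Runx2 (1.12, adjusted p = 0.020), Etv5 (0.71, adjusted p = 0.00951) and Csf1 (0.55, adjusted p = 0.0128). Of 19 regulators of MMP activity 6 rose and 2 fell on HFD and 2 fell with SZ-A 600, the matrix receptor Cd44 (diet 3.36, adjusted p = 2.85e-04, SZ-A 600 -1.78, adjusted p = 0.0244) and the uptake receptor Lrp1 (diet 1.13, adjusted p = 0.00464, SZ-A 600 -0.96, adjusted p = 0.0227).

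Of 11 ADAM proteases, the membrane relatives of ADAMTS, 4 rose and 1 fell on HFD, and 3 fell and 1 rose with SZ-A 600. Adam17, the sheddase of TNF, was called in both (diet 1.35, adjusted p = 3.56e-04, SZ-A 600 -1.12, adjusted p = 0.00612). Of 7 ADAMTS-like proteins, which lack the protease domain, Adamtsl5 rose on HFD and Adamtsl3 fell with SZ-A 600. Of 9 cathepsins and other matrix proteases 7 rose on HFD, led by Ctsk (4.34, adjusted p = 5.81e-04), and 0 were called with SZ-A 600 (list median -0.80), where edgeR gave 4 an unadjusted p under 0.05 and 0 an adjusted one.

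Per gene length, in the FPKM that the authors deposited, the order of the 46 genes also differed between groups. On SD the highest means were Timp2 (98.0 ± 51.9 FPKM), Timp4 (57.7 ± 25.0), Adamts1 (44.2 ± 13.4) and Timp3 (40.0 ± 8.63), and the standard deviations of Timp4, Adamts1 and Timp3 overlapped. On HFD Timp2 (239 ± 111 FPKM) and Mmp12 (179 ± 149.9) led, followed by Mmp19 (47.1 ± 32.8) and Mmp2 (42.4 ± 23.5). By its mean Mmp12 went from rank 19 of 46 on SD to rank 2 on HFD and held rank 2, 2 and 1 with the 3 doses of SZ-A (136 ± 148 FPKM at 600 mg/kg/day, beside 125 ± 42.5 for Timp2). Rank 1 rested on SZ-A 600 libraries 1 and 4, with 370 and 415 FPKM of Mmp12. In each other SZ-A 600 library Mmp12 lay below Timp2. Timp3 and Timp4 were at rank 11 and 7 on HFD and at rank 5 and 3 with SZ-A 600.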

How the data were processed

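The libraries were poly(A)-selected, strand-specific and read as 150 bp pairs, per the labels' protocols. The authors deposited raw counts per gene, which were tested as deposited, and FPKM per gene, which were used for levels per length and for alternatives. Which aligner and which counter made them is not given in the sources used here. Submitters' processing notes name mm10. Counts of 56748 genes were filtered with filterByExpr (20218 left) and fitted with edgeR 4.0.16 in R 4.3.3 (TMM, quasi-likelihood test with robust = TRUE, 1 fit of all 43 libraries in 5 groups), with Benjamini-Hochberg adjustment over the genes tested. Groups and doses come from the labels. CPM are scaled with TMM factors, and log2 CPM use a prior count of 2. The genes described and the gene lists were chosen with earlier results of these data known. Genes were named if called in a comparison, or if they were Mmp12, Mmp3 or a TIMP. Mmp8, Mmp9, Mmp11, Mmp15 and Adamts8 fall outside this rule and were chosen after their values were seen. Library sets and those holding other tissue RNA (100 or more genes at 10 CPM or more and above the median of the libraries by over 20 times, that median counted as at least 0.05 CPM) were defined from the data. Alternatives used limma 3.58.1 on counts and on log2(FPKM + 1) and log2(FPKM + 0.1), DESeq2 1.42.0, other factors and filters, library subsets and each library left out. The test was tried on simulated counts. Total counts of 32716294 to 44259619 per library set the precision for scarce genes. No 2 libraries held identical counts. Promoter windows and motif counts come from RefSeq (GRCm38.p6).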

Additional observations from a re-analysis of the deposited data

Results flagged for a closer look

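Among 95 groups of libraries (19 genes in 5 groups: those called with SZ-A, those with the largest changes on the diet, and Mmp12, Mmp3 and Timp1) 17 held a library far from the rest of its group on the log2 scale by Dixon's test. Chance flags about 1 in 20 groups that were not picked by their values. These genes were picked from these data, some through calls that rest on 1 library, so the 17 cannot be set against that rate. Of the 17, 11 lay in the 4 libraries with other tissue RNA. SD library 4 was high for Adamts16 (10.00 CPM), Adamts20 (7.74 CPM), Adamts3 (1.58 CPM) and Mmp14 (194 CPM). SZ-A 600 library 6 was high for Mmp7 (221 CPM) and Adamts20 (26.8 CPM) and low for Mmp12 (32.7 CPM). SZ-A 400 library 6 was high for Mmp17 (39.3 CPM) and low for Adamts12 (8.91 CPM), Adamts2 (20.4 CPM) and Mmp27 (0 CPM).

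The other 6 lay elsewhere. HFD library 8 was low for Mmp2 (10.9 CPM) and Mmp13 (0.0606 CPM) and high for Mmp7 (1.54 CPM). HFD library 10 was high for Mmp10 (7.87 CPM), SZ-A 200 library 7 for Mmp3 (47.8 CPM), and SZ-A 600 library 4 was low for Adamts3 (0 CPM).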

How the results depend on the processing

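Counts below are genes called higher and lower among the 40. With TMM and edgeR these were 13 and 5 for HFD against SD, 0 and 0 for SZ-A 200, 1 and 1 for SZ-A 400, 2 and 8 for SZ-A 600 and 2 and 10 over the doses. Only counts that moved by over 1.5 times are given, and the cause of these moves was not tested. DESeq2 size factors in edgeR gave 0 lower for SZ-A 400, and upper-quartile factors moved no count by that much. The DESeq2 Wald test gave 2 higher and 3 lower for SZ-A 400, 13 lower for SZ-A 600 (10.1% of all genes) and 1 higher over the doses. With limma voom 14 were lower for HFD (35.2% of all genes, against 13.3% in edgeR), 4 lower for SZ-A 200 (0.861%), 5 lower for SZ-A 400 (1.76%), 4 higher and 19 lower for SZ-A 600 (22.0% and 22.2%), and 4 higher and 19 lower over the doses (20.7% and 21.0%). On log2(FPKM + 1) and on log2(FPKM + 0.1) limma called 0 higher and 0 lower for SZ-A 400 and 0 higher for SZ-A 600 and over the doses. Without a filter 3 were lower for HFD, 0 lower for SZ-A 400 and 5 lower for SZ-A 600, and with at least 1 CPM in 7 libraries 0 were lower for SZ-A 400, 1 higher for SZ-A 600 and 1 higher over the doses. Fits of the compared groups alone gave 0 higher and 0 lower for SZ-A 400, 1 higher for SZ-A 600 and 1 higher over the doses.

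Without the 4 libraries holding other tissue RNA 3 were lower for HFD, 0 higher and 0 lower for SZ-A 400, 0 higher for SZ-A 600 and 0 higher over the doses. With library set as a term 2 were lower for SZ-A 400, 4 higher and 16 lower for SZ-A 600 (10.5% and 10.9% of all genes) and 4 higher over the doses, and without those 4 libraries as well the term gave 0 and 0 for SZ-A 400 and 14 lower for SZ-A 600 (14.4%). Set 1 gave 8 lower for HFD (18.8%), 1 higher and 1 lower for SZ-A 200, 2 lower for SZ-A 400, 4 higher for SZ-A 600 and 4 higher over the doses. Set 2 gave 0 and 0 for HFD, 0 lower for SZ-A 400, and 0 and 0 for SZ-A 600 and over the doses, where edgeR gave 5 and 3, 5 (lower), 2 and 9, and 4 and 12 of 41 tested genes an unadjusted p under 0.05. Each set without the libraries holding other tissue RNA was added after seeing the data. Set 1 so reduced gave 8 lower for HFD, 2 higher and 4 lower for SZ-A 200, 0 and 0 for SZ-A 400, 4 higher for SZ-A 600 and 4 higher over the doses. Set 2 so reduced gave 5 higher and 0 lower for HFD and 0 and 0 for SZ-A 400, for SZ-A 600 and over the doses. The macrophage relation was negative for 3 genes in set 2, against 10 in all, in both cases with the planned adjustment over the 40 genes, which gave 18 positive. The adjustment over all tested genes, with 17 positive and 10 negative, was added after seeing the data.

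Leaving out 1 library gave 11 to 14 higher and 3 to 7 lower for HFD, 0 and 0 for SZ-A 200, 0 to 2 higher and 0 to 3 lower for SZ-A 400, 0 to 4 higher and 5 to 13 lower for SZ-A 600, and 0 to 3 higher and 6 to 12 lower over the doses. The 6 to 12 over the doses reached 6 without HFD library 3, 4, 5 or 6 or SZ-A 600 library 6 or 7.

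Replicate numbers are shared between groups but do not pair the libraries: same-numbered libraries had a median correlation of 0.20 in their deviations from group means, other numbers of the same library set 0.23, and 10 of 43 libraries correlated best with their own number. With the number as a block 11 genes were lower for HFD, beside 25.3% of all genes, and 0 higher for SZ-A 400, beside 1.64%.

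Direction reversed for Adamts20 and Mmp7 alone among the named genes, where the difference was called before or after. In the reduced set 2 the diet differences were 0.23 (Adamts20) and 0.081 (Mmp7), those of SZ-A 600 -1.68 and -4.01, and the changes per dose step -0.52 and -0.98. For SZ-A 600 without the 4 libraries Adamts20 had -0.87, and -0.65 once the set term was added, and per dose step -0.29 and -0.22, beside -0.17 in DESeq2 and -0.059 in limma voom. Leaving out 1 library gave -0.86 (SZ-A 600 library 6) to 5.07 for Adamts20 and -0.77 to 9.65 for Mmp7 with SZ-A 600, and -0.19 to 1.59 per dose step for Adamts20. Depth limits scarce genes such as Mmp27 and Mmp10, with medians under 2 CPM on HFD.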
